A study of Mus musculus with 2 samples.

Results

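DNA replication genes were examined in microglia, the macrophages that reside in the brain, of PARK7/DJ-1 knock-out (KO) and wildtype (WT) mice. The 39 genes were chosen by name from the replication machinery, out of 19537 genes in the matrices, and each had a row in both. Both groups had received LPS (lipopolysaccharide, a bacterial component that triggers systemic inflammation), 1 intraperitoneal dose of 4 μg/g body weight, 24 h before isolation, and no library without LPS was used here. The KO mice carried the gene-trap allele Park7 Gt(XE726)Byg, were backcrossed to C57BL/6NCrl, and the WT mice were their littermates, all aged 3 to 4 months. A sort for CD11b+CD45int cells preceded Drop-seq, where barcodes on beads identify cells and unique molecular identifiers (UMIs) count transcript molecules. There was 1 library per genotype, called KO and WT below (KO LPS and WT LPS in the plots), and each pooled the cells of 1 female and 1 male mouse. There are no replicate libraries, genotype and library cannot be told apart, and no test between genotypes was made. All intervals are 95% intervals of counting error only, except those of a median, which cover the spread over members.

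Before DNA is copied, the origin recognition complex, Cdc6 and Cdt1 load the ring of Mcm2 to Mcm7 onto DNA, which is called licensing, and geminin (Gmnn) blocks a repeat of it by binding Cdt1. Cdc45 and the GINS complex turn the ring into the active helicase, primase and the polymerases copy the strands, the clamp PCNA and its loader RFC tether the polymerases, and RPA covers single-stranded DNA. Most of these genes are driven by E2F transcription factors and peak in cells that enter S phase, whereas some also serve DNA repair in resting cells. Adult microglia seldom divide in the healthy brain and can divide after inflammation.

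The E2F consensus was looked for in promoter windows of RefSeq (GRCm38.p6), as TTTCCCGC, TTTCGCGC, TTTGCCGC or TTTGGCGC on either strand, in the 250 bases before and 50 bases after each annotated start. It was present for 12 of the 32 members with an entry (37.5%) and for 2.605% of all 27025 genes with an entry. Gmnn, Mcm4, Gins1, Gins2, Prim2, Pole and Rfc2 had no entry. Before the start, 8 members had one. The match farthest upstream is shown for 5 of these, those with most UMIs in the licensing, helicase and clamp groups, down to the 6 UMIs of Cdc6, so that its letters can be set beside their levels below. Each line gives 30 bases, 5′ to 3′ on the strand of the gene, with that match (the consensus or its reverse complement) in capitals. The windows hold 2 matches for Mcm7, 3 for Mcm6, 2 for Rfc3, 2 for Mcm5 and 1 for Cdc6, and in the lines of Mcm6 and Mcm5 another match on the opposite strand overlaps the capitals and runs on into the lower case.
Mcm7: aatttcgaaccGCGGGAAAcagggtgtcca
Mcm6: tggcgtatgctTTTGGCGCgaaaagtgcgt
Rfc3: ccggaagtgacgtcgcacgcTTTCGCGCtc
Mcm5: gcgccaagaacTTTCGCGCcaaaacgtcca
Cdc6: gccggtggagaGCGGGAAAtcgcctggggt
These sites lie at chr5:138172030-138172059 (minus strand), chr1:128359797-128359826 (minus strand), chr5:151651209-151651238 (minus strand), chr8:75109345-75109374 (plus strand) and chr11:98908002-98908031 (plus strand). The capitals begin 165 bases before the start for Mcm7, 110 for Mcm6, 10 for Rfc3, 153 for Mcm5 and 138 for Cdc6, and for Mcm7, Mcm5 and Cdc6 this start lies inside the annotated span of the gene. A match is a description of the letters and no measurement of binding.

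A cell was a barcode with at least 500 UMIs and at least 100 genes, which left 320 cells of KO and 1427 cells of WT, with 381305 and 1989011 UMIs. The libraries shared 0 cell barcodes, and 11 among all barcodes. The median depth was 964 UMIs per cell in KO and 1065 in WT, and 1 cell of WT stood apart with 27757 UMIs, where the next had 10932. All 10 microglial markers were present in both libraries, at a summed level of 41177 CPM in KO and 38096 CPM in WT, where CPM are UMIs per 1e6 UMIs of the cells of a library. Park7 had 1 UMI in KO and 323 UMIs in WT, a ratio of 0.0161 (0.000408 to 0.0906). Of the 39 members, 5 (Cdc6, Cdt1, Rrm2, Chaf1a and Chaf1b) had missing values in the KO matrix, which were read as 0, and the KO matrix listed no gene with 0 UMIs over all its barcodes. In RefSeq, 10 members overlap another protein-coding gene (Mcm7, Cdc45, Gins2, Pold2, Rfc4, Rpa1, Fen1, Lig1, Chaf1a and Mcm9), and reads of such pairs could not be told apart here.

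The summed level of the DNA replication genes was lower in the KO library. The 39 genes summed to 238 UMIs or 624 CPM in KO (547 to 709) and to 2212 UMIs or 1112 CPM in WT (1066 to 1159), a ratio of 0.561 (0.489 to 0.642). There were 31 members with at least 20 UMIs over both libraries, and 17 of them were at least 2-fold lower in KO, where 17.1% of all 9085 genes with that many UMIs were. None of the 31 was at least 2-fold higher, against 12.9% of all genes. These counts describe the genes that passed the minimum and carry no weight of their own, because WT had far more UMIs: 2 members, Rfc1 and Pcna, reached 20 UMIs in KO alone, and 14 of the 17 had 3 or fewer UMIs there. The sum over all 39 genes uses no minimum. The ratio was below 1 for 28 of the 31, where 50.7% of all genes were, or for 27 after scaling by the median of ratios, which moved Rfc1 to the other side. The median log2 ratio of KO over WT was -1.18 for the 31 members and 0.03 for all genes. The intervals of 15 of the 17 lay wholly below 1 and those of 4 (Gmnn, Mcm6, Chaf1a and Hells) wholly below 0.5, among genes already taken for a ratio of at most 0.5. The 17 include Cdt1, Gmnn, Gins2 and Chaf1a, which had 0 UMIs in KO, and with these at a floor of 3 counts, at which Cdt1 and Gins2 are less than 2-fold lower, the members' median was -0.89. Markers of other cells also differed between the libraries: choroid plexus genes (4 of 5 present in each library) summed to 1912 CPM in KO and 11.6 CPM in WT, neutrophil genes to 0 CPM (0 of 5 present) and 68.4 CPM (4 of 5), astrocyte genes to 370 and 173 CPM (5 of 6 in each) and endothelial genes to 83.9 CPM (4 of 5) and 16.6 CPM (5 of 5). Their part in the result was not tested.

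**Figure D1:**
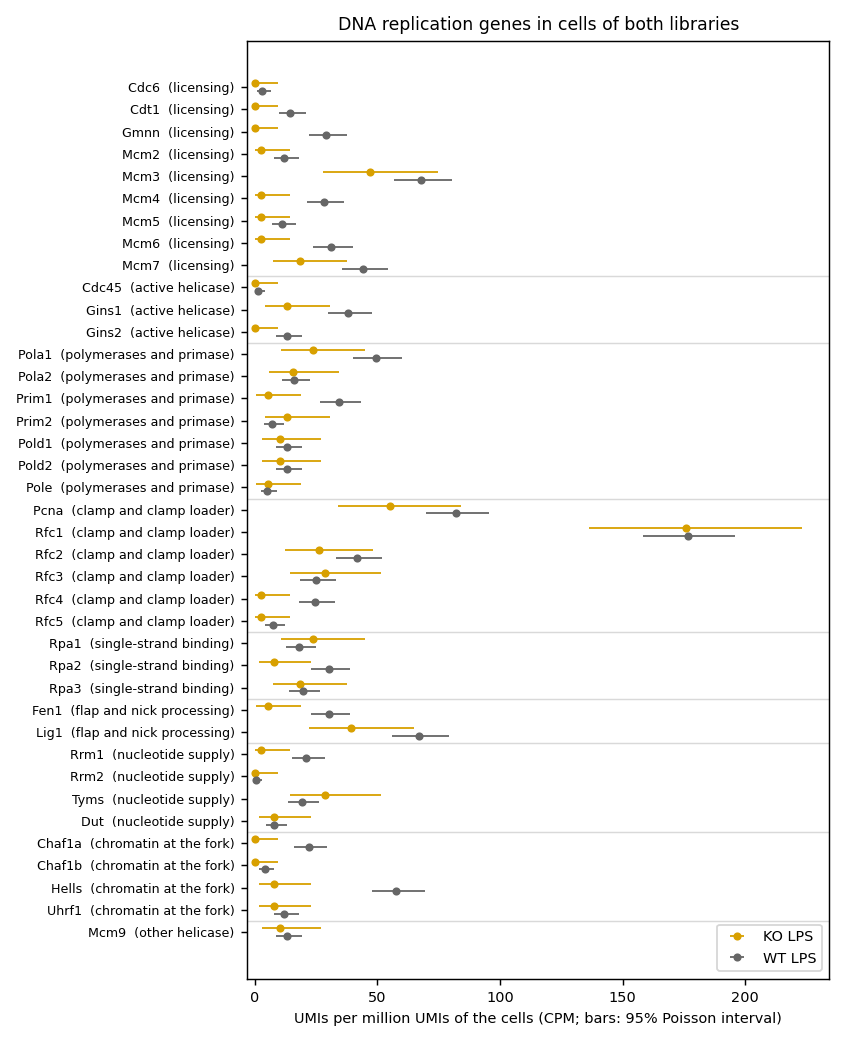
Level of each of the 39 members in the cells of KO (yellow) and WT (grey), in CPM, with 95% Poisson intervals, grouped by role. Rfc1 is the highest member in both libraries, at 176 and 176 CPM, while Hells stands at 7.87 CPM in KO and 57.8 CPM in WT.

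Licensing genes held the largest absolute difference. Together the 9 genes had 29 UMIs in KO and 480 in WT, which is 76.1 CPM (50.9 to 109) and 241 CPM (220 to 264), a ratio of 0.315 (0.209 to 0.459). Within the Mcm2 to Mcm7 ring, Mcm3 had most UMIs, with 18 UMIs in 18 cells of KO and 135 UMIs in 104 cells of WT. Its ratio of 0.696 (0.40 to 1.14) was the only one of the ring above 0.5. Mcm6 (chromosome 1, 128331575 to 128359705) had 1 UMI in KO and 62 UMIs in WT, a ratio of 0.0841 (0.00210 to 0.486), and Mcm4 had 1 and 56 UMIs, a ratio of 0.0931 (0.00232 to 0.541). Mcm7, which overlaps the gene Ap4m1, had 7 and 88 UMIs, a ratio of 0.415 (0.162 to 0.891). Mcm2 had 1 and 24 UMIs and Mcm5 had 1 and 22 UMIs, so that both intervals reach above 1.

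Cdc6, Cdt1 and geminin were at 0 UMIs in KO. Gmnn (chromosome 13, 24751845 to 24761937) had 0 UMIs in KO and 58 UMIs in 49 cells of WT, which makes it at least 3.71-fold lower when 3 counts are put in its place in KO. The exact upper limit of its ratio, which also carries the counting error of WT, was 0.343. Cdt1, the target of geminin, had 0 and 29 UMIs (at least 1.85-fold lower by 3 counts; upper limit of the ratio 0.708). Cdc6 had 0 and 6 UMIs, so that no difference could be detected at the depth of KO. Mcm9, which works with Mcm8 in repair and is not part of the ring, had 4 and 26 UMIs, a ratio of 0.803 (0.204 to 2.31).

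The active helicase factors had 5 UMIs in KO and 105 in WT, at 13.1 and 52.8 CPM, a ratio of 0.248 (0.0790 to 0.598). All 5 KO UMIs belonged to Gins1, which had 76 UMIs in WT and a ratio of 0.343 (0.108 to 0.837). Gins2 (0 and 26 UMIs) was at least 1.66-fold lower by 3 counts (upper limit of the ratio 0.795), but it overlaps the gene Gse1, so that its counts are uncertain. Cdc45 had 0 and 3 UMIs, too few for a comparison.

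Polymerases and primase summed to 83.9 CPM in KO (57.4 to 118) and 138 CPM in WT (122 to 155), a ratio of 0.609 (0.409 to 0.880). Prim1, the catalytic subunit of primase, had 2 UMIs in KO and 68 UMIs in WT, a ratio of 0.153 (0.0182 to 0.576). Pola1, the catalytic subunit of the polymerase that extends the primers, had 9 and 98 UMIs, a ratio of 0.479 (0.213 to 0.947). Its partner Pola2 had 6 and 32 UMIs, a ratio of 0.978 (0.334 to 2.37). Pold1 and Pold2, subunits of a main replicative polymerase, both had 4 and 26 UMIs, a ratio of 0.803 (0.204 to 2.31). Pole had 2 and 10 UMIs and Prim2 had 5 and 14 UMIs, with fewer than 20 UMIs in all.

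The clamp and its loader held the most UMIs of all groups and a sum closer to that of WT, at 291 CPM in KO (239 to 351) and 357 CPM in WT (332 to 385), a ratio of 0.814 (0.661 to 0.996). Of the group's 111 UMIs in KO and 711 in WT, 67 and 351 were of Rfc1, so this sum rests largely on that gene. Rfc1 (chromosome 5, 65261852 to 65338617), the large subunit of the loader, had 67 UMIs in 49 cells of KO and 351 UMIs in 258 cells of WT, a ratio of 0.996 (0.755 to 1.30). In WT, 12 of these UMIs lay in 1 cell. Rfc1 held 28.2% of all member UMIs in KO and 15.9% in WT. Without Rfc1 the other 38 members stood at 448 and 936 CPM, a ratio of 0.479 (0.407 to 0.561). Pcna had 21 and 163 UMIs, a ratio of 0.672 (0.405 to 1.06). Among the small loader subunits, Rfc4, which overlaps Eif4a2, had 1 and 49 UMIs (ratio 0.106, 0.00264 to 0.622), Rfc2 10 and 83 UMIs (0.628, 0.291 to 1.21), Rfc3 11 and 50 UMIs (1.15, 0.539 to 2.23) and Rfc5 1 and 15 UMIs.

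The RPA genes stood at 49.8 CPM in KO (30.0002 to 77.8) and 67.9 CPM in WT (56.9 to 80.3), a ratio of 0.734 (0.429 to 1.19). Rpa2 had 3 UMIs in KO and 60 UMIs in WT, a ratio of 0.261 (0.0523 to 0.80), whereas Rpa1 had 9 and 36 UMIs (1.30, 0.552 to 2.76) and Rpa3 had 7 and 39 UMIs (0.936, 0.353 to 2.12). Flap and nick processing was lower in KO, at 44.6 CPM (26.0 to 71.4) beside 97.0 CPM in WT (83.8 to 112), a ratio of 0.459 (0.262 to 0.755). Fen1, the flap endonuclease, had 2 and 60 UMIs, a ratio of 0.174 (0.0206 to 0.656), and Lig1, the ligase that joins the lagging strand, had 15 and 133 UMIs, a ratio of 0.588 (0.320 to 1.01). Nucleotide supply stood at 39.3 CPM in KO (22.02 to 64.9) and 48.8 CPM in WT (39.5 to 59.5), a ratio of 0.807 (0.435 to 1.40). Rrm1, a subunit of ribonucleotide reductase, had 1 and 42 UMIs, a ratio of 0.124 (0.00307 to 0.731). Its partner Rrm2, which is tied to S phase, had 0 UMIs in KO and 1 UMI in WT. Tyms, the thymidylate synthase, had 11 and 38 UMIs and the highest ratio of the 31 members, 1.51 (0.696 to 3.01), with 1 inside its interval. Dut, which removes dUTP, had 3 and 16 UMIs.

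The genes of proteins that handle chromatin at the fork had the lowest ratio of all groups, 0.164 (0.0594 to 0.363). They had 6 UMIs in KO and 191 UMIs in WT, at 15.7 CPM (5.77 to 34.2) and 96.0 CPM (82.9 to 111). The interval of this ratio overlaps those of the active helicase (0.0790 to 0.598) and of licensing (0.209 to 0.459), so the order of these groups is not settled. Hells (chromosome 19, 38930262 to 38970470), a chromatin remodeller needed for DNA methylation, had 3 UMIs in 3 cells of KO and 115 UMIs in 82 cells of WT, a ratio of 0.136 (0.0277 to 0.408). Chaf1a (chromosome 17, 56040416 to 56068026), the large subunit of the histone chaperone CAF-1, stood at 0 UMIs in KO beside 44 in WT, which is at least 2.81-fold lower by 3 counts (upper limit of the ratio 0.456). It overlaps Ubxn6. Chaf1b had 0 and 8 UMIs. Uhrf1, which guides maintenance methylation, had 3 and 24 UMIs, a ratio of 0.652 (0.126 to 2.15), and all 3 KO UMIs lay in 1 cell.

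**Figure D2:**
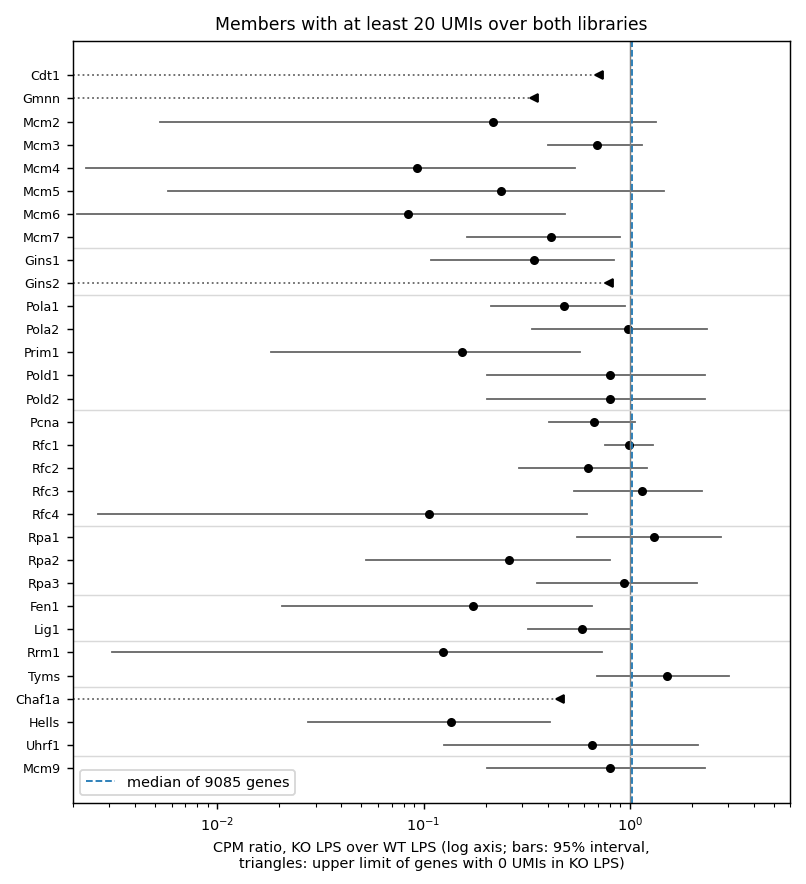
CPM ratio of KO over WT for the 31 members with at least 20 UMIs, on a log axis, with 95% intervals; triangles mark the exact upper limit of the ratio of genes with 0 UMIs in KO, and the dashed line is the median of all 9085 genes. 28 of the 31 lie below 1, and the ratios of Rfc3, Rpa1 and Tyms lie above it.

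A list of 47 other replication genes, of which 46 were in the matrices, summed to 1322 CPM in KO (1209 to 1442) and 1823 CPM in WT (1764 to 1883), a ratio of 0.725 (0.659 to 0.796), and 31 of them had at least 20 UMIs. At least 2-fold lower in KO were 9 of the 31 (all genes: 17.1%) and at least 2-fold higher was 1 (all genes: 12.9%), with a median log2 ratio of -0.42. Timeless, which steadies the fork, had 0 UMIs in KO and 74 in WT (at least 4.73-fold lower by 3 counts; upper limit of the ratio 0.267), while its partner Tipin had 6 and 72 UMIs, a ratio of 0.435 (0.154 to 0.993). Dna2, a nuclease of the lagging strand, had 2 and 89 UMIs, a ratio of 0.117 (0.0140 to 0.436), and Atad5, which unloads the clamp, 8 and 128 UMIs, a ratio of 0.326 (0.138 to 0.662). Among subunits of the origin recognition complex, Orc5 had 10 and 162 UMIs (0.322, 0.152 to 0.608) and Orc6 5 and 69 UMIs (0.378, 0.119 to 0.925). Orc2 (0.805, 0.506 to 1.23), Orc3 (0.735, 0.436 to 1.18) and Orc4 (1.30, 0.806 to 2.04) were not past 2-fold, with 1 inside their intervals. The gene at least 2-fold higher in KO was Rrm2b, the reductase subunit of resting cells, with 23 and 50 UMIs, a ratio of 2.40 (1.40 to 4.01).

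Mitosis genes went the other way through very few cells. The 19 genes summed to 118 UMIs in KO and 152 UMIs in WT, at 309 CPM (256 to 371) and 76.4 CPM (64.8 to 89.6). In KO, 106 of these UMIs lay in 3 cells, and in WT 41 did. A cell with 76 mitosis UMIs was also the KO cell with most replication UMIs (9 UMIs of 6 members, 3 of them from Uhrf1, among 3359 UMIs), and it carried 132 UMIs of the microglial markers and 0 UMIs of the other marker lists. Only 2 cells of KO and 4 cells of WT had at least 5 mitosis UMIs, and they held 9 and 35 replication UMIs.

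Many cells held a replication UMI, and the share of such cells depended on the depth to which cells were thinned. Every cell was thinned to 500 UMIs, which left out no cell. At least 1 replication UMI was then present in 26.6% of cells of KO (21.8 to 31.8) and 36.6% of WT (34.1 to 39.1), by exact Clopper-Pearson intervals. Droplets of 500 UMIs with the composition of barcodes of 1 to 100 UMIs, taken here as background, would reach 22.4% and 38.4%. Both intervals contain this background. At 1000 UMIs, in 148 and 770 cells, a random thinning gave 48.6% in KO (40.4 to 57.0), with a background of 39.9%. It gave 58.4% in WT (54.9 to 61.9), with a background of 62.1%. The interval of this draw lay above the background in KO and below it in WT. Averaged over all thinnings, the shares were 44.6% in KO and 56.8% in WT. The KO share of the draw was above that average, so no place against the background is read for KO. No difference between the libraries is read from these shares. The unthinned shares were 47.8% and 58.9%.

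Cells with several replication UMIs were more frequent than this background in WT at both depths. In KO the interval lay above the background at 1000 UMIs only, in a random thinning that ran high for KO. In that draw 48.6% of KO cells held a replication UMI, where the average over all thinnings was 44.6%. At 500 UMIs per cell, at least 3 replication UMIs were present in 42 of 1427 cells of WT, 2.94% (2.13 to 3.96), where the background composition would give 1.32%. In KO they were present in 3 of 320 cells, 0.938% (0.194 to 2.72), with a background of 0.225%, which lies inside the interval. At 1000 UMIs they were present in 111 of 770 cells of WT, 14.4% (12.01 to 17.1), with a background of 7.46%, and in 7 of 148 cells of KO, 4.73% (1.92 to 9.50), with a background of 1.499%. At 500 UMIs per cell, UMIs of at least 3 different members were present in 37 cells of WT (2.59%, 1.83 to 3.56) and in 0 of 320 cells of KO, which allows a share of up to 0.938% by 3 counts, or 1.15% by the exact upper limit, of cells with such UMIs at this depth. At 1000 UMIs these were 87 cells of WT (11.3%, 9.15 to 13.7) and 3 cells of KO (2.03%, 0.42 to 5.81). The variance of replication UMIs over cells, divided by their mean, was 1.37 in WT and 1.02 in KO at 500 UMIs, where even spreading at 1 depth would give about 1. At 1000 UMIs it was 1.97 and 1.28.

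Before thinning, at least 10 replication UMIs were present in 22 of 1427 cells of WT, 1.54% (0.969 to 2.32), and in 0 of 320 cells of KO, with an upper limit of 1.15%, so that the intervals overlap. Of the 22 cells, 6 had more UMIs than the deepest KO cell, which had 4292. These 22 cells held 328 of the 2212 UMIs (14.8%) and 5.33% of all UMIs of the WT cells. In 11 of them a mitosis UMI was present. Apart from the cell with 27757 UMIs, which had 39 replication UMIs or 1.41 per 1000 UMIs, the highest cell had 20 UMIs of 12 members among 2152 UMIs, or 9.29 per 1000, led by Chaf1a with 3 UMIs. The next had 19 UMIs of 11 members among 2597 UMIs, led by Lig1 and Prim1, with 26 mitosis UMIs. Another with 19 UMIs of 13 members among 3342 UMIs was led by Hells with 5 UMIs and had 0 mitosis UMIs. All 3 carried microglial markers (56, 69 and 150 UMIs) and 0 UMIs of the other marker lists. The sums did not rest on the highest cells: the 3 highest cells held 3.53% of replication UMIs in WT (2.80 to 4.38) and 7.98% in KO (4.87 to 12.2), and without them the ratio of summed levels was 0.535 (0.463 to 0.615).

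**Figure D3:**
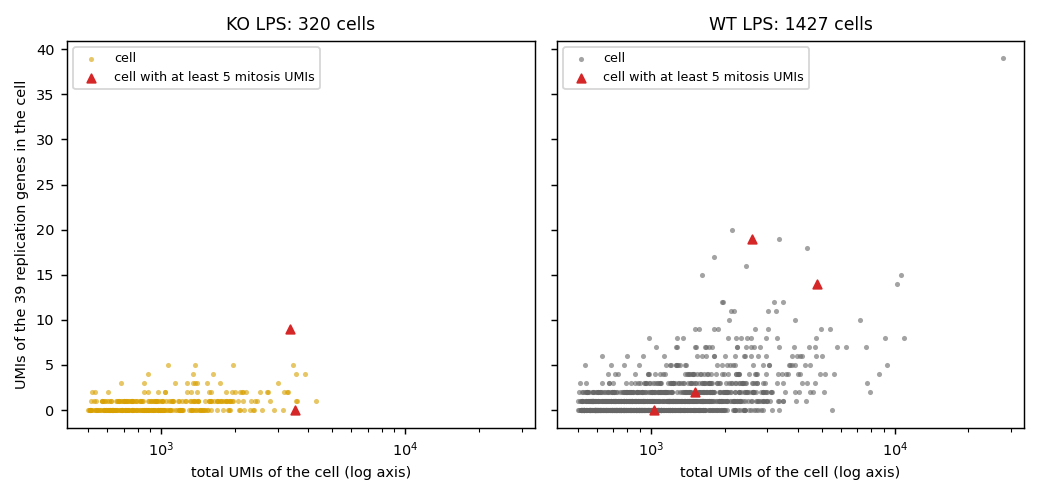
Replication UMIs of each cell against its total UMIs (log axis) in KO (left, 320 cells) and WT (right, 1427 cells); triangles are cells with at least 5 mitosis UMIs. The 22 WT cells with at least 10 replication UMIs include 6 that are deeper than any KO cell, and the highest KO cell has 9 replication UMIs.

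The level also differed within the WT library, between cells grouped by Xist (a transcript of female cells) and Y-linked transcripts. Each pool held a female and a male mouse, and cells with an Xist UMI and no Y-linked UMI, called Xist-positive, were set beside cells with a Y-linked UMI and no Xist UMI, called Y-positive. These UMIs were not specific enough to assign a cell to a mouse. An Xist UMI was present in 65.3% of KO cells and 45.2% of WT cells, where the composition of barcodes of 1 to 100 UMIs would give 83.0% and 68.3% at the depths of the cells. A Y-linked UMI was present in 6.56% and 19.3%, where that composition would give 12.1% and 23.0%, and 9 KO cells and 80 WT cells held both. The groups below are therefore groups by UMI, and neither their numbers nor their levels are read as those of the female or the male mouse.

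In WT, replication genes stood at 887 CPM in 565 Xist-positive cells (823 to 954) and at 1486 CPM in 195 Y-positive cells (1353 to 1629), a ratio of 1.68 (1.49 to 1.89) of Y-positive over Xist-positive. With at least 2 such UMIs per cell, in 323 and 51 cells, the ratio was 1.73 (1.44 to 2.08). Of 22 members with at least 20 UMIs in these cells, 19 were higher in the Y-positive cells, as were 51.5% of all genes, and the median log2 ratio was 0.68, against 0.04 for all genes. Licensing genes stood at 416 and 162 CPM, a ratio of 2.57 (2.00 to 3.31), and the chromatin group at 166 and 63.0 CPM, a ratio of 2.63 (1.75 to 3.96). Examples in the same order were Mcm3 (124 and 45.7 CPM), Hells (111 and 39.5 CPM) and Mcm7 (94.3 and 21.0 CPM), with whole intervals of the ratio above 1, while those of Pcna (81.3 and 79.0 CPM; ratio 1.03, 0.621 to 1.66) and Rfc1 (163 and 142 CPM; 1.15, 0.805 to 1.61) held 1. At 500 UMIs per cell, at least 3 replication UMIs were present in 5.64% of Y-positive cells (2.85 to 9.87) and 0.531% of Xist-positive cells (0.110 to 1.54), beside the background of 1.32%. The share was 4.26% (2.77 to 6.22) in the 587 WT cells with neither transcript and 3.75% (0.78 to 10.6) in the 80 cells with both, so that of the 4 groups the Xist-positive cells had the lowest. Median depths of Y-positive and Xist-positive cells were 1287 and 1133 UMIs per cell.

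The libraries held these groups in different numbers, which are not read as the shares of the female and the male mouse. KO had 200 Xist-positive and 12 Y-positive cells, with 162 and 8 replication UMIs. Their levels were 622 CPM (530 to 725) and 554 CPM (239 to 1091). Among Xist-positive cells the ratio of KO over WT was 0.701 (0.587 to 0.832), or 0.667 (0.543 to 0.815) with at least 2 Xist UMIs, beside 0.561 in all cells. The median log2 ratio among Xist-positive cells was -0.43 over 15 members (interval over members -1.60 to 0.26, which holds 0), against -0.0048 for all 7130 genes. Of the 15, 10 were lower in KO, as were 51.9% of all genes. Here too the minimum was passed mostly through WT, since only Rfc1 reached 20 UMIs in the Xist-positive cells of KO, and the values are a description. Licensing genes had a ratio of 0.451 (0.263 to 0.732), the active helicase 0.296 (0.0771 to 0.816) and the chromatin group 0.244 (0.0640 to 0.663) in these cells, whereas the clamp and its loader had 0.888 (0.673 to 1.16). Of the 72 KO UMIs and 252 WT UMIs of the clamp and its loader there, 44 and 115 were of Rfc1. Among Y-positive cells the ratio was 0.373 (0.160 to 0.740), from the 8 UMIs of KO. The part of the mice's shares in the difference between the libraries was not tested.

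**Figure D4:**
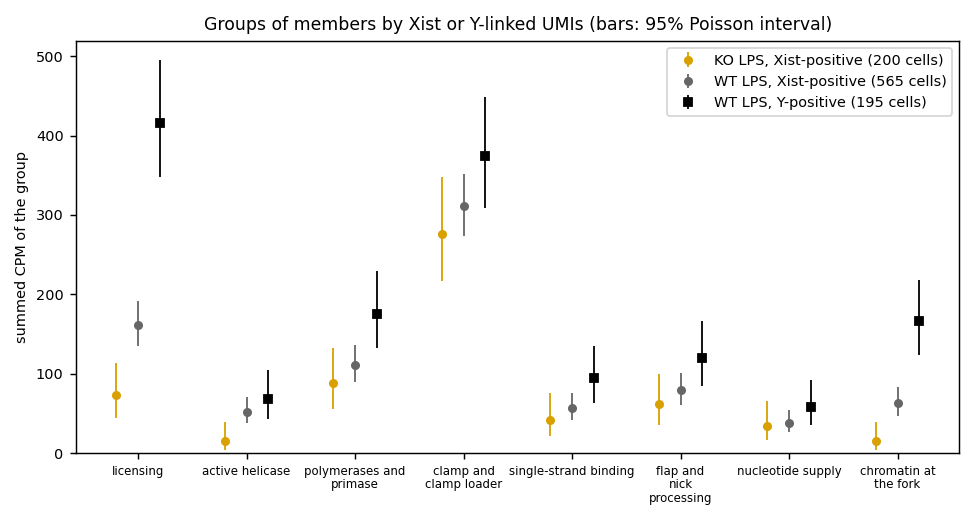
Summed CPM of 8 groups of members in Xist-positive cells of KO (yellow circles, 200 cells), Xist-positive cells of WT (grey circles, 565 cells) and Y-positive cells of WT (black squares, 195 cells), with 95% Poisson intervals. Licensing genes stand at 72.9, 162 and 416 CPM in that order, while the intervals of the clamp and its loader overlap in the 3 sets.

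Cells were compared last with barcodes of 1 to 100 UMIs of the same library, of which there were 9069 in KO (198723 UMIs) and 4267 in WT (315748 UMIs). Replication genes stood at 508 CPM in these barcodes of KO (414 to 618) and 969 CPM in those of WT (864 to 1084), so the libraries differed outside the cells too, with a ratio of 0.524 (0.415 to 0.659). The level in cells over these barcodes was 1.23 in KO (0.969 to 1.57) and 1.15 in WT (1.02 to 1.30), but 0.998 in WT (0.613 to 1.75) against barcodes of 1 to 50 UMIs. Without Rfc1 it was 1.19 (0.901 to 1.58) and 1.40 (1.21 to 1.62).

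Single members spread widely around this sum. In WT, 31 members had at least 20 UMIs over cells and these barcodes, and 15 of them were at least 2-fold higher in cells (all genes: 24.5%). Mcm9 alone was at least 2-fold lower (all genes: 2.51%), at 0.459 with an interval of 0.208 to 1.11, which holds 1. The median log2 ratio of the 31 members was 0.75, against 0.27 for all genes. These values describe the members that passed the minimum, nearly all of them through the cells: only Rfc1, Pola1, Mcm3 and Lig1 had 20 UMIs in the barcodes alone, and the intervals of 12 of the 15 held 1. Hells had 115 UMIs in cells and 7 UMIs in the barcodes, a ratio of 2.61 (1.23 to 6.63), Gins1 76 and 4 UMIs (3.02, 1.13 to 11.4) and Pcna 163 and 11 UMIs (2.35, 1.28 to 4.81). Rfc1 had 351 and 95 UMIs, which made it lower in cells, at 0.587 (0.466 to 0.744), and Pola1 98 and 27 UMIs, at 0.576 (0.373 to 0.918). Rfc1 alone held 31.0% of the replication UMIs in these barcodes of WT. In KO only Rfc1, Pcna and Mcm3 had enough UMIs. Pcna was at least 2-fold higher in cells there (2.19, 0.803 to 7.43; all genes: 9.68%) and none was 2-fold lower (all genes: 2.18%), and Rfc1 stood at 1.34 (0.842 to 2.20), with 67 and 26 UMIs.

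**Figure D5:**
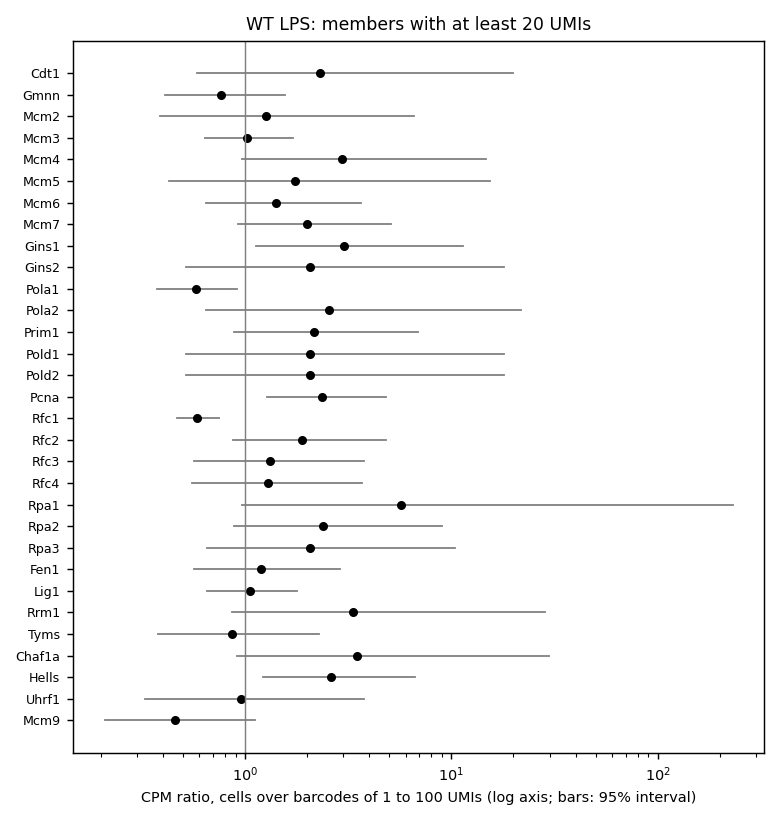
CPM ratio of cells over barcodes of 1 to 100 UMIs in WT for 31 members, on a log axis with 95% intervals. Rfc1 and Pola1 lie below 1 with their whole intervals, and Pcna, Gins1 and Hells lie above it.

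Members with and without an E2F match in their promoter window were found on both sides. At least 2-fold lower in KO were 6 of 11 tested members with a match and 7 of 15 without, where 17.1% of all genes were, and their median log2 ratios were -0.99 and -0.54. Of the members whose sites are printed above, Mcm6 had a ratio of 0.0841 and Rfc3 of 1.15. The match was also present for 12 of 36 other replication genes with an entry (33.3%) and for 1 of 17 mitosis genes (5.88%).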

How the data were processed

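The authors deposited 1 matrix per library of counts, that is UMIs per gene for 9999 barcodes, neither normalised nor filtered to cells. The submitters' processing notes name bcl2fastq 2.0, STAR and the builds mm9 and mm10 without roles, and the counting program and its use of strand are not given in the sources used here, so counts of overlapping genes are uncertain. The study's methods name DropletUtils for cell calling and MAST for tests. Here cells were barcodes with at least 500 UMIs and 100 genes, and no MAST test was made, as 1 library gives no replicates. Doublets were left in, since no removal is stated. The matrices of KO and WT held 684738 and 3063795 UMIs, of which 55.7% and 64.9% were in cells.

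UMIs were summed over cells with scipy 1.17.1 and numpy 2.4.6 under Python 3.11.15. Levels carry exact Poisson intervals, ratios exact conditional binomial intervals and shares exact Clopper-Pearson intervals at 95%. Intervals of a median are order-statistic intervals over members. Log2 ratios used a prior count of 0.5. A gene needed 20 UMIs over both arms of a comparison to be given in counts of genes past 2-fold. Genes without UMIs in a library were given 3 counts there as a floor for fold changes. Cells were thinned without replacement with a fixed seed. The calculations were tested on simulated data. Positions and promoter windows are RefSeq, GRCm38.p6. Every member is named, and of the other replication genes up to 8 past 2-fold, with Orc2, Orc3 and Orc4 beside Orc5 and Orc6. Members and lists were chosen with earlier results of these data known. The comparison of Xist-positive with Y-positive cells within WT was chosen after seeing the data, as were the minimum of 2 such UMIs and leaving out Rfc1.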

Additional observations from a re-analysis of the deposited data

How the results depend on the processing

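The ratio of summed levels ranged from 0.535 to 0.590 over cell minimums of 300 and 1000 UMIs, scaling, equal weight per cell, the 3 or more highest cells, the 5% deepest cells and genes listed in both matrices. It moved to 0.701 in Xist-positive cells, 0.667 with at least 2 Xist UMIs, 0.373 in Y-positive cells and 0.479 without Rfc1. The median log2 ratio of members was below 0 in every setting, from -1.53 to -0.43. Its interval over members held 0 in Xist-positive cells (-1.60 to 0.26, 15 members) and in Y-positive cells (-1.86 to 1.06, 7 members). Of members at least 2-fold lower in KO, 15 to 18 were counted, except 11 of 17 when 50 UMIs were required, which leaves fewer genes. Without a minimum they were 22 of 39, which adds genes of fewer than 20 UMIs. At least 2-fold higher was 1 member at 300 UMIs per cell or without the 5% deepest cells. Past 1.5-fold, 20 of 31 members were lower in KO and 1 was higher. The shares of all genes past 2-fold, 17.1% lower and 12.9% higher, were taken at the main settings only. The share of cells with a replication UMI depends on depth: it was 48.6% and 58.4% (KO and WT) in a random thinning to 1000 UMIs, with backgrounds of 39.9% and 62.1%, and 47.8% and 58.9% unthinned. Averaged over all thinnings to 1000 UMIs it was 44.6% and 56.8%. Cells over barcodes in WT turned from 1.15 to 0.998 against barcodes of 1 to 50 UMIs (interval 0.613 to 1.75), and moved to 1.40 without Rfc1. The 3 highest WT cells held 4.45% of replication UMIs, in place of 3.53%, at 1000 UMIs per cell and 2.67% without the WT cell of most UMIs. Leaving out Rfc1, 15 WT cells or single extreme cells, and the minimum of 2 Xist UMIs, were chosen after seeing the data. Of the 17 members at least 2-fold lower, 14 rest on 3 or fewer UMIs in the 320 cells of KO, with wide intervals. No paired analysis was possible because each genotype has 1 library, and no replicate could be left out.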

Other observations

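Barcodes between both sets, above 100 UMIs and not called as cells, entered none of the comparisons at the main settings. Some of them counted as cells where the minimum of UMIs per cell was lowered. The barcodes between both sets numbered 443 (KO) and 4302 (WT). Replication genes stood at 353 CPM in KO (249 to 487) and 818 CPM in WT (755 to 885), a ratio of 0.432 (0.301 to 0.602). In both libraries this was below the level in the cells and below that in barcodes of 1 to 100 UMIs.

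Many cells fell in neither group by Xist and Y-linked UMIs. Cells with neither numbered 99 in KO and 587 in WT, with replication levels of 600 CPM (454 to 777) and 1187 CPM (1104 to 1275). Cells with both numbered 9 and 80, with 983 CPM (491 to 1759) and 1195 CPM (1060 to 1343). Of the 22 WT cells with at least 10 replication UMIs, 2 were Xist-positive, 9 Y-positive, 5 carried neither and 6 both.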
